A study of Homo sapiens with 4 samples.

Results

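The 10 genes described here encode the transcription factor NRF2, its inhibitor, and enzymes and a transporter of glutathione metabolism and ferroptosis. They were chosen by name, with earlier results of these data known (NFE2L2, KEAP1, SLC7A11, GCLC, GCLM, GPX4, ACSL4, NQO1, ME1 and TXNRD1). All 10 were among the 37450 genes of the deposited count table. Messenger RNA had been sequenced from 143B, an established human osteosarcoma cell line, 2 days after transfection with lipofectamine. In the group called siNC, 2 libraries came from wild-type 143B cells given an siRNA that targets no gene. In the group called siCBX3, 2 libraries came from 143B cells given siRNA against CBX3, which encodes the heterochromatin protein HP1 gamma. Both groups were therefore transfected cells of a single line, and the labels do not say whether the libraries of a group were separate cultures. The p-values thus set each difference against the spread between these libraries, which may be technical. For each gene that spread was estimated largely from all genes together (2 residual and 21.97 prior degrees of freedom).

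Total counts were 36509298 to 40336907 per library. The targeted gene CBX3 was counted 20311 and 21384 times in siNC but 2020 and 2163 times in siCBX3, so it was 9.15-fold lower (edgeR quasi-likelihood test, log2 fold change -3.19, adjusted p 2.73e-20). Among osteosarcoma and mesenchymal markers, RUNX2 was at 4.43 to 6.02 CPM (TMM-scaled CPM, read counts relative to library size) and COL1A1 at 13.4 to 18.3 CPM, while the bone enzyme gene ALPL was at 0.106 CPM or less in every library. Other markers of this list differed between the groups: SPP1 was at 10.3 and 10.7 CPM in siNC and 75.2 and 73.3 CPM in siCBX3, SPARC at 358 and 285 against 1782 and 1683 CPM, and VIM at 651 and 757 against 1414 and 1425 CPM. The part of this shift in the results on the 10 genes was not tested. Epithelial markers summed to 15.2 to 20.1 CPM, mostly from EPCAM. EPCAM was at 14.1 and 14.2 CPM in siNC and lower in siCBX3, at 9.70 and 10.2 CPM (log2 fold change -0.51). Endothelial markers summed to 1.93 to 3.16 CPM. The leukocyte markers summed to 398 to 659 CPM, almost entirely from CD68, a lysosomal protein gene, and the pan-leukocyte gene PTPRC was at 0.478 CPM or less. CD68 shares 85.8% of its exon bases with other genes, so its counts can hold reads of those genes. These are bulk libraries, in which fewer cells of a type and less RNA per cell cannot be told apart.

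NRF2 is a transcription factor that is made continuously and destroyed continuously. KEAP1 holds it for ubiquitination by a cullin ligase, and electrophiles or oxidants modify KEAP1 so that NRF2 escapes, enters the nucleus and binds antioxidant response elements beside its targets with a small MAF partner. Glutathione, the main small thiol of the cell, is built from cystine that enters through SLC7A11, by the GCLC and GCLM enzyme and then by glutathione synthetase. Ferroptosis is a form of cell death by iron-dependent peroxidation of membrane lipids, which GPX4 opposes at the expense of glutathione and which ACSL4 favours by loading polyunsaturated fatty acids into phospholipids.

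The core of the antioxidant response element was searched for in promoter windows because it is the sequence that links NRF2 to its targets. Windows of 300 bases, from 250 before to 50 after a transcript start, came from RefSeq (GRCh38.p14), and 9 of the 10 genes had at least 1 window, 14 in all. SLC7A11 had no entry. The letters searched were TGACNNNGC on both strands. They were present in 4 of these 9 genes and in 5 of the 14 windows. The shares over the whole table were 16.06% of 27305 genes and 13.35% of 35116 windows. The 8 matches are given here with 10 bases on each side, written so that the core reads TGACNNNGC, with the core in capitals.

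KEAP1, second window, chr19:10502807-10502835, minus strand: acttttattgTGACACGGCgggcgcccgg
KEAP1, second window, chr19:10502784-10502812, plus strand: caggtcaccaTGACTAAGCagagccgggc
GCLM, chr1:93909446-93909474, plus strand: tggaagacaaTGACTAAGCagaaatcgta
ME1, chr6:83431170-83431198, minus strand: tctcctgccaTGACTCAGCgcttctcgca
ME1, chr6:83431022-83431050, plus strand: gctgctggggTGACGGTGCtgactgcagc
TXNRD1, first window, chr12:104215670-104215698, plus strand: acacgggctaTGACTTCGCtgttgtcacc
TXNRD1, first window, chr12:104215761-104215789, minus strand: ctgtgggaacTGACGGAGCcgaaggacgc
TXNRD1, second window, chr12:104286920-104286948, minus strand: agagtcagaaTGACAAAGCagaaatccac

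GCLM and KEAP1 share the same core letters, TGACTAAGC. The ME1 core TGACTCAGC overlaps a TGANTCA motif, the letters bound by AP-1 factors, and the other 7 matches do not. The windows of NFE2L2, GCLC, GPX4, ACSL4 and NQO1 held no match in these 300 bases. A match is a run of letters and not a measured site of binding.

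With siCBX3, 8 of the 10 genes rose and 2 fell. ME1, NQO1, ACSL4, GPX4, SLC7A11, NFE2L2, KEAP1 and TXNRD1 were higher, and GCLC and GCLM, which encode both subunits of the enzyme that starts glutathione synthesis, were lower. A gene was called changed at an adjusted p under 0.05 (edgeR quasi-likelihood test on counts, Benjamini-Hochberg over the 20999 genes tested). By that rule 48.4% of all genes tested were called, 24.4% higher and 24.0% lower, so a call alone is common in this comparison. The 2 groups did not overlap in any of the 10 genes, while 36.4% of all genes tested were without overlap and higher in siCBX3 and 37.4% were without overlap and lower. The median log2 fold change was 0.55 over the 10 genes and -0.01 over all genes tested. By size, ME1 exceeded most genes, with 5.09% of those tested having a larger absolute change. This share was 15.5% for NQO1, 16.4% for ACSL4, 18.8% for GPX4, 27.9% for SLC7A11 and 37.2% for GCLM. It was 45.8% for NFE2L2, 60.2% for GCLC, 61.1% for KEAP1 and 67.0% for TXNRD1.

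**Figure D1:**
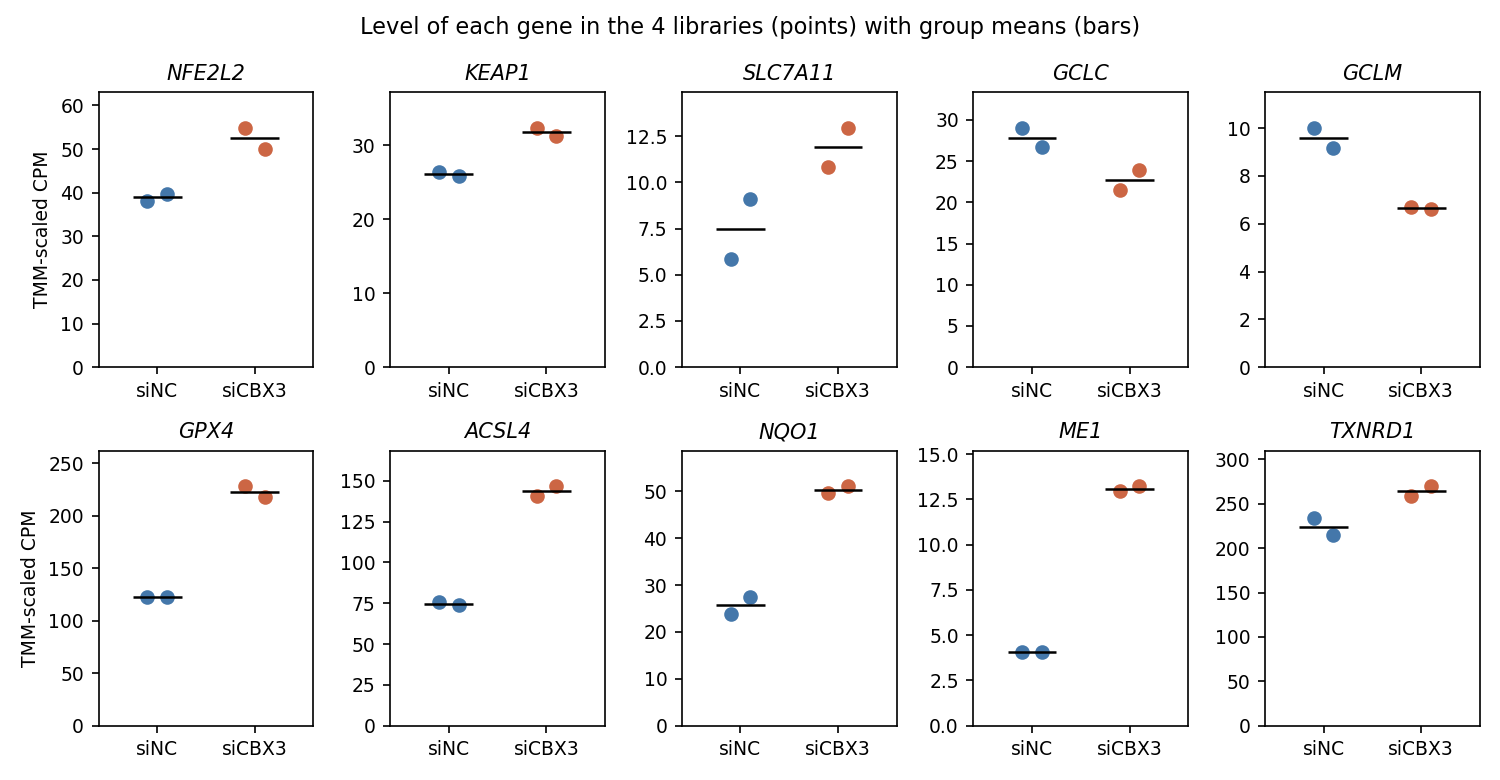
TMM-scaled CPM (vertical axes, each from 0) of the 10 genes in the siNC and siCBX3 libraries; points are single libraries and bars are group means. Both siCBX3 points lie above both siNC points in 8 panels and below them for GCLC and GCLM, and SLC7A11 has the widest relative spread within siNC (5.84 and 9.09 CPM).

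NFE2L2, the gene of NRF2 (chr2:177227595-177392697, minus strand, GRCh38 as in the count table), stood at 38.1 and 39.8 CPM in siNC and at 54.9 and 50.02 CPM in siCBX3. Both siCBX3 libraries were above both siNC libraries, and the rise was 1.35-fold (log2 fold change 0.43, SE 0.084, adjusted p 0.000156, edgeR). NFE2L2 shares 20.9% of its exon bases with other genes. The partners are AC074286.1 on the same strand (175 to 256 counts per library), and AC079305.10 (307 to 558) and AGPS (2457 to 3201) on the opposite strand. NFE2L2 itself had 1435 to 1934 counts. AC074286.1 and AC079305.10 were also called higher, and the part of shared reads in the NFE2L2 result was not tested.

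KEAP1, the adaptor that presents NRF2 for destruction (chr19:10486120-10503741, minus strand), had 26.4 and 25.8 CPM in siNC and 32.3 and 31.3 CPM in siCBX3. The groups did not overlap, and the difference was small, at 1.22-fold (log2 fold change 0.28, 95% interval 0.10 to 0.47, adjusted p 0.0101, edgeR). The call ended with library totals in place of TMM scaling (adjusted p 0.0641), without siCBX3 replicate 1 (0.0802) and on RPKM values with limma (0.0700 and 0.0684). The ratio of NFE2L2 to KEAP1, on the deposited per-length scale (RPKM), was 0.907 and 0.970 in siNC and 1.07 and 1.01 in siCBX3. These ratios did not overlap between the groups and were higher in siCBX3, and the difference between the 2 genes was not tested.

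SLC7A11 encodes the cystine-glutamate antiporter subunit xCT (chr4:138164097-138242349, minus strand). Its counts were 220 and 383 with siNC, and 382 and 491 with siCBX3, which are 5.84 and 9.09 CPM against 10.8 and 13.0 CPM. The siNC libraries differed from each other nearly as much as the groups did, with replicate 1 the lower. The rise was 1.59-fold (log2 fold change 0.67, SE 0.16, adjusted p 0.00104, edgeR). It was 0.39 without siNC replicate 1 (adjusted p 0.0231) and 1.03 without siNC replicate 2 (adjusted p 3.22e-08), so its size depends on the control library used, and on RPKM values it was not called (adjusted p 0.113 and 0.126). The antisense gene SLC7A11-AS1, on the opposite strand, shares 8.97% of the SLC7A11 exon bases and had 23 to 44 counts. The heavy chain SLC3A2, which carries xCT to the membrane, moved the other way. SLC3A2 had 114 and 134 CPM in siNC and 84.1 and 78.1 CPM in siCBX3 (log2 fold change -0.61, adjusted p 1.32e-06, edgeR). SLC3A2 was singled out after its values were seen. On the RPKM scale, SLC7A11 stood at 0.0275 and 0.0364 of SLC3A2 in siNC and at 0.0692 and 0.0890 of it in siCBX3.

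GCLC encodes the catalytic subunit of glutamate-cysteine ligase, the rate-limiting enzyme of glutathione synthesis (chr6:53497341-53616970, minus strand). Its level was 29.0 and 26.7 CPM in siNC and 21.5 and 23.9 CPM in siCBX3. The groups did not overlap, but the gap between the nearest libraries was close to the spread within a group. The fall was 1.23-fold (log2 fold change -0.29, 95% interval -0.49 to -0.10, adjusted p 0.0133, edgeR). It was no longer called without siNC replicate 1 (adjusted p 0.0779), without siCBX3 replicate 1 (0.161) or on RPKM values (0.0549 and 0.0504). The genes that share exon bases with GCLC had at most 51 counts per library, against 759 to 1123 for GCLC.

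GCLM encodes the modifier subunit of the same ligase (chr1:93885205-93909456, minus strand), shares no exon bases with another gene, and fell further. It had 10.0 and 9.16 CPM in siNC and 6.69 and 6.60 CPM in siCBX3. Both siCBX3 libraries lay below both controls, by 1.44-fold on average (log2 fold change -0.53, SE 0.13, adjusted p 0.0020, edgeR), and the call held in all 14 alternatives. The ratio of GCLC to GCLM on the RPKM scale was 1.86 in each siNC library and 2.06 and 2.32 in siCBX3. The 2 ligase genes and SLC3A2 fell, while SLC7A11 rose.

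GPX4, the selenoenzyme that reduces lipid hydroperoxides inside membranes (chr19:1103926-1106791, plus strand), was among the most abundant of the 10 genes. It had 123 and 122 CPM in siNC and 228 and 218 CPM in siCBX3. The SD of the siNC libraries was 0.148 CPM and that of the siCBX3 libraries 7.07 CPM, and the rise of 1.82-fold was far larger than the spread in either group (log2 fold change 0.86, SE 0.073, adjusted p 6.05e-10, edgeR). No exon bases of GPX4 lie under another gene.

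ACSL4, the acyl-CoA ligase that prefers arachidonic acid (chrX:109624244-109733403, minus strand), rose with it. Its libraries stood at 75.9 and 73.7 CPM in siNC and at 141 and 147 CPM in siCBX3, a rise of 1.92-fold (log2 fold change 0.94, SE 0.075, adjusted p 2.09e-10, edgeR). KCNE5 covers 78 of its exon bases and had 4 to 20 counts. A gene that restrains ferroptosis and a gene that favours it were thus both higher. On the RPKM scale GPX4 stood at 5.14 and 5.28 times ACSL4 in siNC and at 5.15 and 4.73 times ACSL4 in siCBX3, values that overlap between the groups.

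NQO1, NAD(P)H quinone dehydrogenase 1, is a widely used readout of NRF2 activity (chr16:69706996-69726951, minus strand). Its level was 23.9 and 27.6 CPM in siNC and 49.6 and 51.1 CPM in siCBX3. Both siCBX3 libraries were well above the controls, and the rise was 1.96-fold (log2 fold change 0.97, SE 0.090, adjusted p 2.98e-09, edgeR). On the opposite strand, CTD-2033A16.1 covers 17.7% of its exon bases and was also called higher, but had only 38 to 84 counts per library against 899 to 1935 for NQO1.

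ME1, cytosolic malic enzyme, makes NADPH from malate (chr6:83210389-83431071, minus strand) and showed the largest change of the 10. Its counts were 154 and 172 with siNC, and 457 and 501 with siCBX3, which are 4.09 and 4.08 CPM against 13.0 and 13.2 CPM. The libraries of each group were nearly equal, and the rise was 3.20-fold (log2 fold change 1.68, SE 0.13, adjusted p 2.37e-10, edgeR). On log2(RPKM + 1), where the added 1 shrinks the change of a low gene, the log2 fold change was 1.09.

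TXNRD1, the cytosolic selenoenzyme that reduces thioredoxin (chr12:104215779-104350305, plus strand), had the most counts of the 10 and the smallest change. Its level was 234 and 215 CPM in siNC and 259 and 270 CPM in siCBX3. The groups did not overlap, and the difference was 1.18-fold (log2 fold change 0.24, 95% interval 0.09 to 0.39, adjusted p 0.00989, edgeR). It was not called with library totals (adjusted p 0.0798), without siCBX3 replicate 2 (0.127) or on RPKM values with limma (0.0967 and 0.0989).

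**Figure D2:**
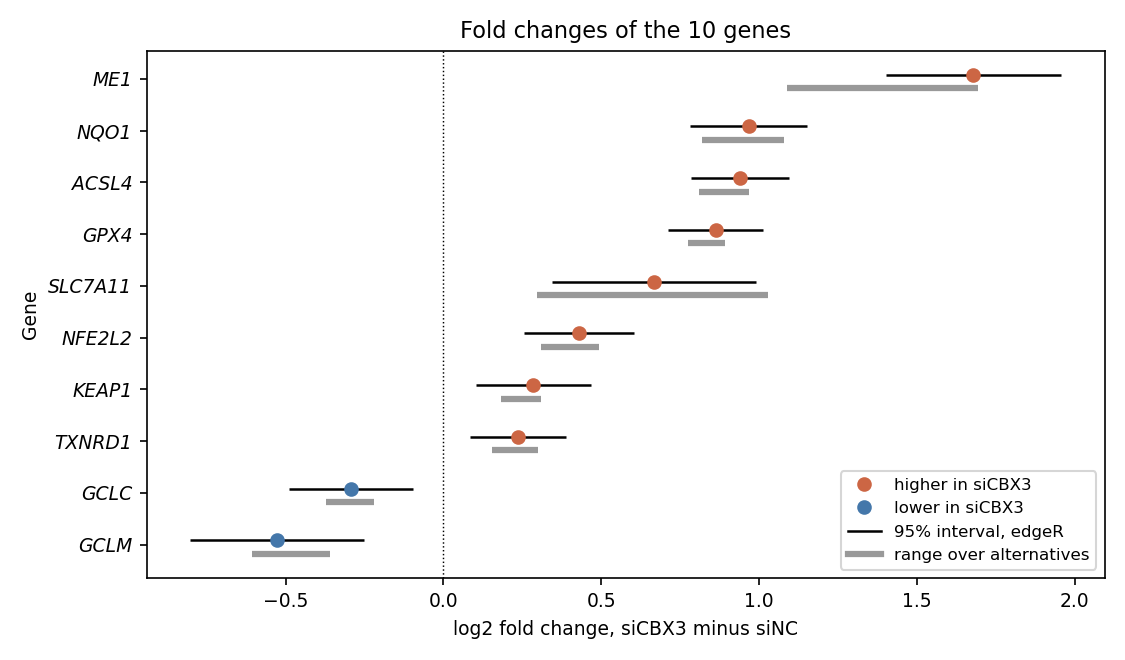
Log2 fold change (horizontal axis, siCBX3 minus siNC) of the 10 genes, with points from edgeR, black lines for the 95% interval and grey bars for the range over 14 other ways of scaling, filtering, testing or leaving out a library. GCLC and GCLM lie below 0 and the other 8 genes above it over their whole ranges, and SLC7A11 has a wide grey bar (0.30 to 1.03).

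Compared per length, on the deposited RPKM scale, the order of the levels in siNC was GPX4 (62.4 ± 1.42 RPKM, SD, n = 2), TXNRD1 (34.3 ± 1.22), ACSL4 (12.0 ± 0.037), NQO1 (8.12 ± 1.02), KEAP1 (7.12 ± 0.049), NFE2L2 (6.69 ± 0.363), GCLC (3.38 ± 0.123), GCLM (1.81 ± 0.070), ME1 (1.24 ± 0.029) and SLC7A11 (0.798 ± 0.264). NQO1 and KEAP1 differed by less than the SD of NQO1. In siCBX3 the first 4 places were unchanged, while ME1 (3.78 ± 0.089 RPKM) stood above GCLC (2.61 ± 0.216) and GCLM (1.19 ± 0.00092 RPKM) came last. NFE2L2 and KEAP1, and SLC7A11 and GCLM, differed there by less than the larger of their SDs. ME1 had been the lower in siNC.

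Other genes of these pathways were taken from 4 lists drawn up by function, with earlier results of these data known. Their counts and medians are therefore description and not independent support. Lists are described by counts and medians, to be read against the 24.4% and 24.0% of all genes called higher and lower. In the list of NRF2 partners, regulators and targets, 20 of 35 tested genes rose, 4 fell and 11 were not called, and the median log2 fold change was 0.58. ABCC3, an exporter of conjugated anions, rose from 3.93 and 2.73 CPM to 30.2 and 34.8 CPM (log2 fold change 3.29, adjusted p 9.72e-16, edgeR). AKR1C3, an aldo-keto reductase, rose by 2.32 on the log2 scale. On log2(RPKM + 1) these rises were 1.66 for ABCC3 and 1.33 for AKR1C3. SQSTM1, the autophagy receptor p62 that binds KEAP1, rose by 1.46, and FTH1, the ferritin heavy chain, by 1.47. BEST1, on the other strand, covers 62.4% of the FTH1 exons, and SQSTM1 shares 22.04% with other genes, so their counts can hold reads of other genes. AKR1C3 shares no exon bases with another gene but has relatives of similar sequence. Whether reads of these relatives entered its counts was not tested.

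Further members of that list were looked at after their values had been seen. HMOX1, heme oxygenase 1, rose from 5.55 ± 0.402 to 8.49 ± 0.377 CPM (n = 2 per group), and the NRF2 relative NFE2L1 from 361 ± 8.67 to 782 ± 2.66 CPM. The small MAF genes MAFF (0.77) and MAFG (0.58) rose on the log2 scale, as did the repressor BACH1 (0.62), which competes with NRF2 for the same elements, while MAFK (0.05, adjusted p 0.680, edgeR) was not called. The 4 genes that fell were SLC48A1 (-0.65), RBX1 (-0.57), CBR3 (-0.53) and CUL3 (-0.20), of which CUL3 and RBX1 encode the ligase that works with KEAP1. With no filter beyond a count above 0, and with the DESeq2 Wald test, 3 genes of the list were called lower. Fewer were also called lower without siCBX3 replicate 1.

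Genes of glutathione synthesis, transport and use changed in both directions. Tests were possible for 38 of 40, of which 14 fell, 8 rose and 16 were not called, with a median of -0.11, inside the middle 50% of all genes tested (-0.39 to 0.38). CHAC2, which degrades glutathione, fell from 12.0 and 8.66 CPM to 3.04 and 3.72 CPM (log2 fold change -1.61, adjusted p 2.71e-08, edgeR). GLRX5, a mitochondrial glutaredoxin of iron-sulfur cluster assembly, fell by 0.76 on the log2 scale and the glutathione transferase gene GSTM4 by 0.75, while ANPEP, a surface aminopeptidase, rose by 0.75. GLRX5 shares 18.2% of its exon bases with other genes. Looked at after their values had been seen, GSS, the second enzyme of glutathione synthesis, also fell (log2 fold change -0.35, adjusted p 0.000760, edgeR), and the related genes GSTM1 (-0.77), GSTM2 (-0.96) and GSTM3 (-0.33) fell with GSTM4. Counts of these transferase genes can share reads. The reductase gene GSR, which regenerates glutathione, was not called (-0.07, adjusted p 0.606, edgeR).

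In the list of thioredoxin, peroxiredoxin and selenoprotein genes 6 of 37 rose, 11 fell and 20 were not called, with a median of -0.07. TXN, thioredoxin itself and the substrate of TXNRD1, fell from 67.5 and 67.7 CPM to 48.2 and 51.8 CPM (log2 fold change -0.44, adjusted p 7.25e-05, edgeR), against the small rise of TXNRD1. Of the selenoprotein genes, those named for the smallest adjusted p were VIMP (0.82) and SEPN1 (0.52), which rose on the log2 scale, and SELT (-0.78), which fell. Looked at after their values had been seen, SELM (0.68) was also called higher, and SELK (-0.30), SEP15 (-0.42) and TXNRD2 (-0.41) lower. SEPN1 shares 15.01% of its exon bases with other genes.

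The list of lipid peroxidation and ferroptosis genes was split. Tests were possible for 37 of 39, of which 9 rose, 12 fell and 16 were not called, with a median of 0.05. SAT1, a polyamine acetyltransferase tied to ferroptosis, rose from 40.4 and 42.9 CPM to 132 and 131 CPM (log2 fold change 1.66, adjusted p 1.03e-14, edgeR). LPCAT1, a lysophospholipid acyltransferase, rose by 0.76 and the metal importer gene SLC39A14 by 0.64. DHCR7, which consumes 7-dehydrocholesterol, fell by 0.90. Among genes looked at after their values had been seen, ACSL3 (-0.48), which activates monounsaturated fatty acids, fell while ACSL4 rose. LPCAT3 (-0.46) and ELOVL5 (-0.49), picked in the same way, fell too, while FADS1 (0.54) rose. EMG1, on the other strand, covers 65.6% of the LPCAT3 exon bases. The genes that follow were also picked after their values had been seen. The ubiquinone reductase gene AIFM2, also called FSP1, rose (0.39), and GCH1 (-0.84) and DHODH (-0.36), of other protective routes, fell. VKORC1L1 (-0.41) and MBOAT2 (-0.76) of the same list fell too, and COQ2 (0.37, adjusted p 0.0518, edgeR) was not called.

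**Figure D3:**
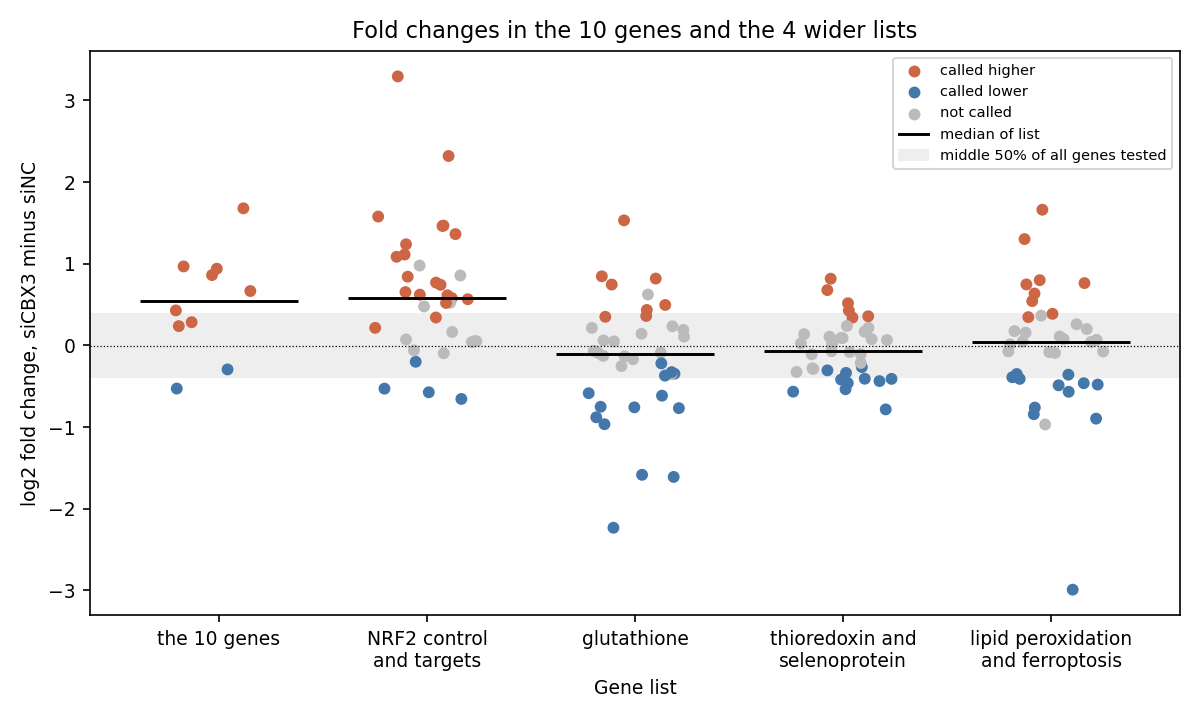
Log2 fold change (vertical axis, siCBX3 minus siNC) of each tested gene in the 10 genes and the 4 wider lists, coloured by its call, with black lines for list medians and a grey band for the middle 50% of all genes tested. The medians of the 10 genes (0.55) and of NRF2 control and targets (0.58) lie above the band, and the medians of the other 3 lists lie inside it. The genes and lists were chosen with earlier results of these data known.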

How the data were processed

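The study deposited 2 tables with the same genes, 1 of read counts as counted by the authors and 1 of RPKM computed by the authors, with a column for every library per the file headers. Per the submitters' processing notes, reads were handled with featureCounts (Subread 1.5.1), STAR 2.5.3a and Trimmomatic 0.36, and the build was GRCh38. Settings for strand and shared reads are not given in the sources used here, so overlapping genes are treated as uncertain. Recomputing RPKM from the counts, lengths and totals gave the deposited values (largest relative difference 3.79e-07).

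Counts were fitted in R 4.3.3 with edgeR 4.0.16 (filterByExpr with a minimum count of 10 and total of 15, TMM factors, group as the only term, 2 residual and 21.97 prior degrees of freedom). SE is the absolute log2 fold change over the root of F. Alternatives used DESeq2 1.42.0 and limma 3.58.1. The step was tested on simulated data for siCBX3 against siNC (20528 genes). It recovered 10 of 50 genes at 1.25-fold, 31 at 1.5-fold, 44 at 2-fold and 49 at 4-fold, and called 3 unchanged genes. Far fewer genes were changed there than the 48.4% called in the real comparison. The adjusted p depends on that share, so these rates need not hold for the real data. Errors and intervals describe sampling of reads and differences between these libraries only. The 10 genes and the lists were chosen with earlier results of these data known. From each wider list the 4 called genes with the smallest adjusted p were named. List names matched the table for 151 of 152 genes, 11 by older symbols. Motif searches and plots used Python 3.11.15 and matplotlib 3.10.9.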

Additional observations from a re-analysis of the deposited data

How the results depend on the processing

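All 10 genes kept their direction in all 14 alternatives, and 6 of them their call. The calls of KEAP1, SLC7A11, GCLC and TXNRD1 ended in 2 to 4 alternatives each. With RPKM plus 1 or plus 0.1 (limma), 5 of the 10 genes were called higher and 1 lower. In the wider lists, 4 glutathione genes and 3 thioredoxin and selenoprotein genes were then called higher. With 1 library left out, when the lone library of a group is assumed to vary like the others, the 10 genes kept their direction but not all kept their call. Library totals gave 6 called higher and 2 called lower, and moved calls over all genes from 50.4% to 41.8% higher. Replicate numbers are shared between groups, but libraries with the same number did not deviate together (correlation 0.029 across genes), so the numbers are not read as pairs. With a replicate block 8 rose and 2 fell, as without it. Depth limits the low genes of the wider lists: GPX2, with 21 to 26 counts per library, had a log2 fold change of 0.06 with an SE of 0.43.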
